A study of Mus musculus with 79 samples.

Results

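Clone H12 is a line of E14 mouse embryonic stem cells made to lack a transient enhancer within the Hoxb locus (genotype E14;HoxTransEdel in the labels). Its nuclear RNA was compared between 48 h and 74 h of 1 uM retinoic acid (RA), called late here, and 4 h and 6 h of RA, called early. The comparison holds 4 late and 4 early libraries, 2 at each time, which are 8 of the 79 libraries of the series. The libraries were chosen by clone and time alone. Deletion clone E3, of the same genotype label, and the wild-type clone G4 (E14;HoxTransEwt) served as reference, with the same 4 times and 2 libraries per time. Each genotype rests on 1 or 2 clones, so what H12 does cannot be told apart from what this 1 clone does. All cells were grown in medium with serum and leukemia inhibitory factor (LIF), and the labels do not say whether LIF was withdrawn with RA. Nothing in the labels says whether the 2 libraries of a time came from separate cultures, so p-values measure the spread between libraries, which may be technical.

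RA is made from vitamin A and binds receptors of the RAR and RXR families, which sit at response elements in DNA and switch genes on when the ligand is present. Cells limit their own exposure by inducing CYP26 enzymes, which break RA down. In embryonic stem cells RA ends the pluripotent state, opens the Hox clusters from their 3′ ends, and leads to neural, endodermal and other fates. Nuclear RNA holds many unspliced transcripts, so its levels follow transcription more closely than total RNA does.

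The 8 libraries held 6044542 to 9797678 reads. Levels are CPM, the reads of a gene relative to all reads of its library with TMM scaling, in the order 4 h replicates 1 and 2, 6 h replicates 1 and 2, then 48 h and 74 h likewise. Genes count as called, or are said to rise or fall, where edgeR's quasi-likelihood test gave an adjusted p under 0.05. On log2 fold changes ± marks an approximate standard error (SE), and on means the SD over libraries (n = 4). These 4 libraries come from 2 times, so the SD includes the change between the times and is not a spread of replicates alone. By chi-squared per gene, which grows with depth, the 2 libraries of a time differed by 17.1 at 48 h, 3.46 at 4 h, 5.21 at 6 h and 10.2 at 74 h, and their log2 CPM correlated by 0.987 at 48 h and 0.986 at 74 h. Replicate 2 at 48 h lay nearer to both 74 h libraries (chi-squared of 40.2 and 48.8 per gene) than replicate 1 did (60.6 and 76.1). The tables give no coordinates for the deleted enhancer, and no gene in them reports on the deletion.

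Late H12 cells differed from early ones at most genes measured. The early libraries had themselves had RA for 4 h or 6 h, so a fall late need not be a fall below the untreated level. Of 15923 genes tested, 5042 were higher late (31.7%) and 5345 were lower (33.6%), and with a change of at least 2-fold 3020 were higher (19% of genes tested) and 1953 lower (12.3%). The median log2 fold change over all genes was -0.04. In 7396 of the 10387 called genes the late and early libraries did not overlap. Over all genes tested, all 4 late libraries lay above all 4 early ones in 3738 (23.5%) and below them in 3755 (23.6%). Counts of members called late against early in the gene groups that follow, and statements that libraries did not overlap, are to be read against these shares.

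**Figure D1:**
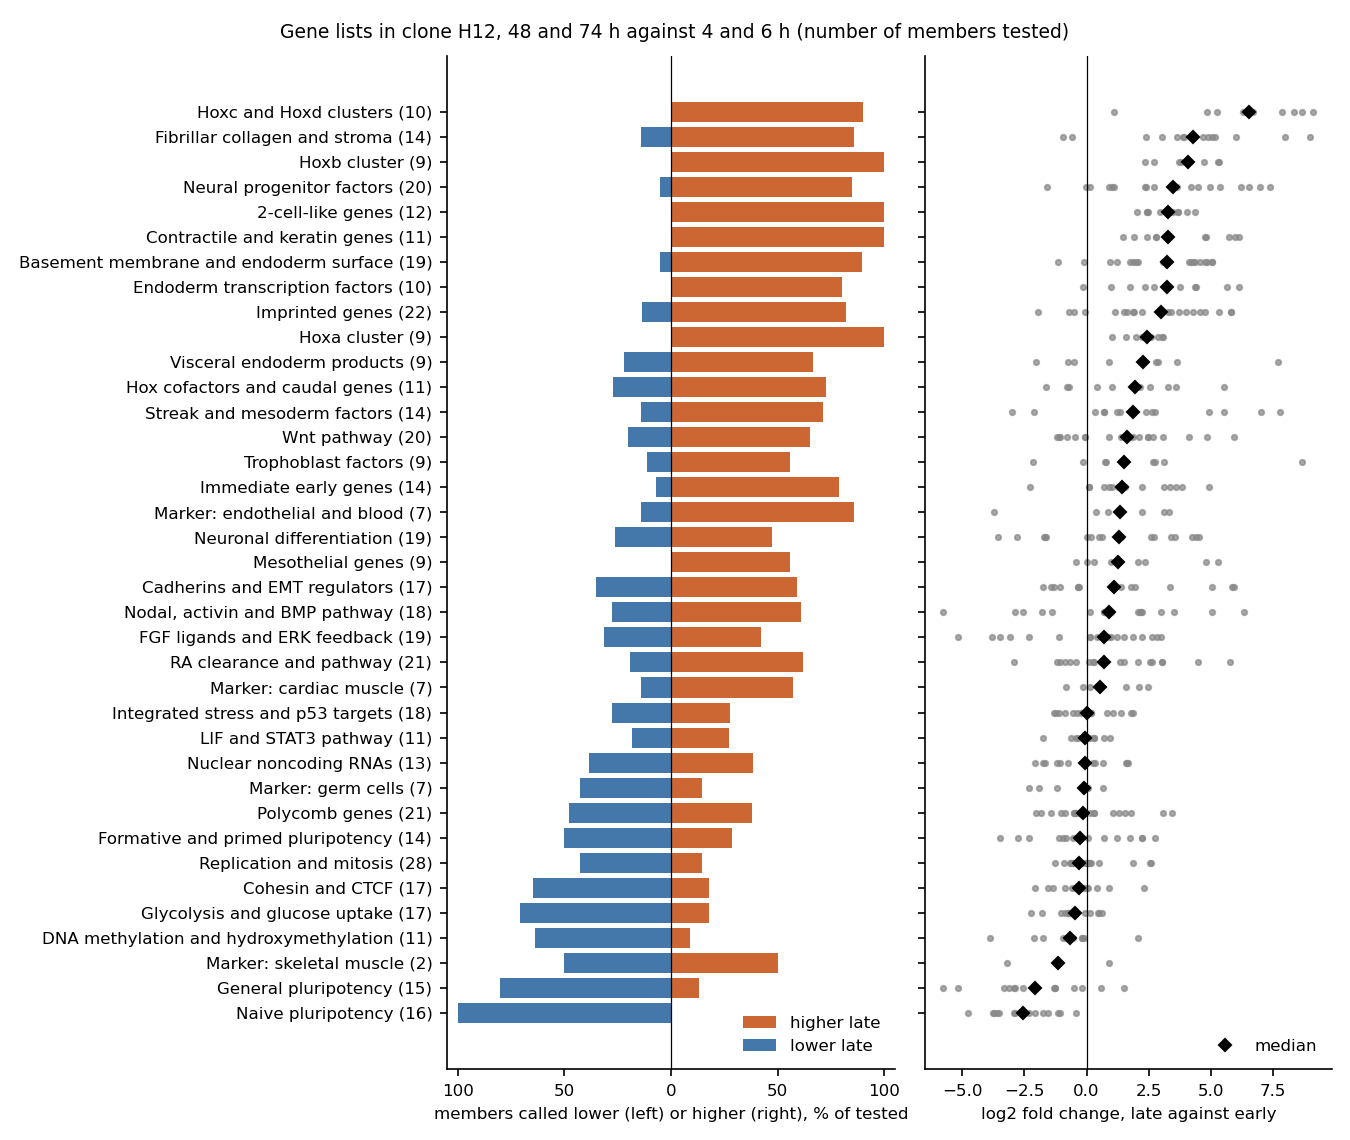
Each row is a gene list with the number of members tested in clone H12; bars give the percent of members called lower (blue) or higher (orange) at 48 and 74 h than at 4 and 6 h, and points on the right give each member's log2 fold change with the median as a diamond. All tested members of the Hoxa, Hoxb, 2-cell-like and contractile lists were called higher, and all 16 tested of the naive pluripotency list lower.

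Among genes of the RA pathway, 13 of 21 tested were higher late, 4 were lower and 4 were not called (median log2 fold change 0.70). Cyp26a1 and Cyp26b1, which clear RA, both rose. Cyp26a1, the main RA-degrading cytochrome, had 129, 64.5, 163 and 97.7 CPM early and 236, 253, 418 and 227 CPM late (log2 fold change 1.33 ± 0.29, adjusted p = 2.67e-04). All late libraries lay above all early ones, and the gene had 0.651 and 0.495 CPM before RA. Cyp26b1, a second enzyme of this kind, had 12.01, 8.26, 21.2 and 13.8 CPM early and 74.7, 44.0, 188 and 43.6 CPM late (log2 fold change 2.64 ± 0.35, adjusted p = 2.15e-07).

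The receptors moved in different directions. Rarb, an RA receptor that is itself an RA target, had 89.4, 78.5, 125 and 111 CPM early, 407 and 414 CPM at 48 h and 236 and 152 CPM at 74 h (log2 fold change 1.502 ± 0.16, adjusted p = 8.14e-10). It was thus highest at 48 h, and the step down to 74 h was called (log2 fold change -1.08 ± 0.21, adjusted p = 3.62e-04). Rarg fell from 152, 169, 159 and 173 CPM to 29.0, 23.2, 22.2 and 12.9 CPM (log2 fold change -2.93 ± 0.15, adjusted p = 4.69e-17), and Rara fell by 0.85 on the log2 scale. Rxra, a shared partner of these receptors, rose by 2.53 ± 0.19 on the log2 scale (adjusted p = 6.62e-13).

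Binding and transport proteins rose. Crabp2, which carries RA to the nucleus, had 3.69, 3.81, 1.96 and 5.49 CPM early and 44.1, 63.5, 93.7 and 178 CPM late (log2 fold change 4.49 ± 0.35, adjusted p = 1.15e-11). Stra6, the cell-surface receptor for the retinol carrier, went from 23.9, 19.5, 47.5 and 36.8 CPM to 202, 222, 301 and 260.0 CPM (log2 fold change 3.01 ± 0.16, adjusted p = 1.52e-16). Stra8, known as an RA-induced gene of germ cells, fell instead, from 207, 216, 220.5 and 271 CPM to 159.7, 152, 100.3 and 28.6 CPM (log2 fold change -1.19 ± 0.24, adjusted p = 1.19e-04), and its 48 h level alone was not called lower (adjusted p = 0.117). Dhrs3, which turns retinal back to retinol, had 182 and 205 CPM at 48 h and 125 and 31.4 CPM at 74 h against 67.7, 67.5, 88.1 and 82.0 CPM early. Its call (log2 fold change 0.70 ± 0.27, adjusted p = 0.0264) was lost without either 4 h library, the second 6 h, the second 48 h or the first 74 h library (adjusted p from 0.0505 to 0.754).

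RA response elements often consist of 2 copies of a hexamer in the same orientation, 5 bases apart. The 250 bases before each RefSeq start were searched on both strands for pairs of half-sites 5 bases apart. The half-site was the hexamer AGGTCA, or its variant with T at the third place, AGTTCA, or either of these with G at the first place, GGGTCA and, for the last, GGTTCA; any 2 of the 4 made a match. RefSeq promoters (build GRCm38.p6) matched 11971 of the 15923 genes tested by symbol, and 8 of these (0.067%) held such a repeat, as did 0.088% of all 32851 promoters in that table. Of 17 RA pathway genes with a promoter, 2 held it, Cyp26a1 and Rarb, and these 2 stretches are shown because both genes are members described above. They read 5′ to 3′ along the gene's strand, with the repeat in capitals; in Cyp26a1 the hexamers lie on the other strand.
Cyp26a1: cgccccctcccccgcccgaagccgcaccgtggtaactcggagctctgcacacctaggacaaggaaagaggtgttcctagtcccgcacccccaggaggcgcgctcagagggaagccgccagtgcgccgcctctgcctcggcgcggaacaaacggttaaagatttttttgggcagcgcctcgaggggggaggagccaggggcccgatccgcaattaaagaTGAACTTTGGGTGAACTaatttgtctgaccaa
Rarb: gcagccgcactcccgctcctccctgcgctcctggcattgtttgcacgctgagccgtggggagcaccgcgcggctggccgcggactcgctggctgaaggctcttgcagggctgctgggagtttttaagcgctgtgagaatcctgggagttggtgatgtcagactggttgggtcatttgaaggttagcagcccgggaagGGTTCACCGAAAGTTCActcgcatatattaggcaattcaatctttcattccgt
The Cyp26a1 stretch is chr19:37697558-37697807 on the plus strand and its repeat spans 32 to 16 bases before the start. The Rarb stretch is chr14:16575477-16575726 on the minus strand and its repeat spans 53 to 37 bases before the start. The other 6 genes were Prokr2, higher late (log2 fold change 1.47, adjusted p = 0.0111), Tnfsf13b, lower late (-1.08, adjusted p = 0.0265), and Blvrb, Cfap45, Ppbp and Syndig1, which were not called (adjusted p from 0.0931 to 0.66). A match to these letters is a description of the sequence and does not show binding.

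The Hox clusters hold transcription factors that set position along the body axis. All 9 Hoxb genes tested were higher late in H12, the clone with the deletion in this cluster (median log2 fold change 4.07). Hoxb1, the gene of this cluster nearest its 3′ end, had 1.08, 0.635, 3.10 and 1.83 CPM early, 42.6 and 52.9 CPM at 48 h and 16.7 and 8.68 CPM at 74 h (log2 fold change 4.07 ± 0.34, adjusted p = 9.00e-12). The 74 h libraries lay below both 48 h libraries (log2 fold change -1.92 ± 0.33, adjusted p = 9.25e-05), and Hoxb1 was the 1 Hoxb gene called in that step. Hoxb2 rose from 1.08, 0.794, 2.77 and 1.13 CPM to 42.2, 48.0, 28.2 and 27.3 CPM (log2 fold change 4.71 ± 0.30, adjusted p = 4.20e-14). Hoxb3 rose from 5.39, 5.72, 12.2 and 11.4 CPM to 100.4, 136, 89.8 and 101 CPM (log2 fold change 3.71 ± 0.16, adjusted p = 7.75e-19).

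The Hoxb genes in the middle and at the 5′ end also rose. Hoxb4 went from 2.92, 5.40, 10.3 and 7.88 CPM to 26.3, 43.7, 26.7 and 28.2 CPM (log2 fold change 2.33 ± 0.20, adjusted p = 9.27e-12), the smallest change in the cluster. Hoxb6 went from 0.616, 0, 0.816 and 0.281 CPM to 12.6, 21.04, 14.7 and 19.2 CPM (log2 fold change 5.31 ± 0.38, adjusted p = 5.06e-13) and Hoxb8 from 0.616, 0.477, 1.14 and 0.563 CPM to 26.0, 38.3, 18.1 and 27.0 CPM (log2 fold change 5.28 ± 0.29, adjusted p = 2.16e-15). Hoxb5, Hoxb7 and Hoxb9 had log2 fold changes of 4.10, 3.79 and 2.70. In none of the 9 genes did the late and early libraries overlap. The listed member Hoxb13 had too few reads to be tested.

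The other clusters followed with different sizes. All 9 Hoxa genes tested were higher late (median 2.44), among them Hoxa5, from 2.16, 1.43, 6.53 and 4.08 CPM to 26.6, 26.0, 33.7 and 17.4 CPM (log2 fold change 3.07 ± 0.28, adjusted p = 1.34e-10). When the 8 libraries were fitted alone with 1 mean for early and 1 for late, 5 Hoxa genes had enough reads to be tested and 4 were called. Of 10 Hoxc and Hoxd genes tested, 9 were higher late and 1, Hoxc13, was not called. These genes were near 0 early: Hoxc4, Hoxc5, Hoxd1, Hoxd4 and Hoxd8 each had 1 read and Hoxd3 had 2 reads in the 4 early libraries together.

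Their rise is therefore given as a ratio of summed reads with an interval for counting error alone. Hoxd3 (chr2:74711993-74748271) had 0.308, 0, 0 and 0 CPM early, 15.7 and 23.3 CPM at 48 h and 46.7 and 50.01 CPM at 74 h, and was 419-fold higher, with a 95% counting interval of 116 to 3465. Its span holds Hoxd4 on the same strand, so reads of the 2 genes cannot be fully separated; Hoxd4 was 284-fold higher, with a 95% counting interval of 50.6 to 11246. Hoxc5 had 14.7, 18.3, 15.0 and 17.9 CPM late and was 427-fold higher, with a 95% counting interval of 76.3 to 16903. Hoxc4 had 14.9, 13.1, 12.4 and 11.9 CPM late and was 344-fold higher, with a 95% counting interval of 61.5 to 13637. Hoxd3, Hoxd4 and Hoxd8 rose further from 48 h to 74 h (log2 fold changes 1.32, 1.89 and 1.90); the call of Hoxd8 was lost without the first 48 h or the second 74 h library (adjusted p = 0.0963 and 0.135).

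MEIS, PBX and PKNOX proteins bind DNA together with Hox proteins. Of 11 such genes and caudal genes tested, 8 were higher late and 3 lower. Meis1 had 14.9, 11.3, 30.4 and 19.7 CPM early and 964, 958, 723 and 674 CPM late (log2 fold change 5.50 ± 0.19, adjusted p = 1.02e-20), and Meis2 rose from 76.4, 49.9, 144 and 97.6 CPM to 1375, 1296, 877 and 828 CPM (log2 fold change 3.61 ± 0.24, adjusted p = 3.37e-13). The caudal gene Cdx1, an early RA target, fell from 20.01, 15.7, 16.3 and 18.6 CPM to 9.31, 4.59, 7.51 and 1.82 CPM (log2 fold change -1.63 ± 0.28, adjusted p = 9.74e-06), as did Pbx4 (-0.81) and Pknox1 (-0.71).

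Pluripotency genes fell almost throughout. All 16 genes tested of the naive state, the ground state of mouse embryonic stem cells, were lower late (median -2.54), and of 15 general pluripotency genes 12 were lower and 2 higher (median -2.08). Pou5f1, which encodes OCT4, had 218, 236, 185 and 188 CPM early and 25.7, 18.1, 24.4 and 14.3 CPM late (log2 fold change -3.32 ± 0.16, adjusted p = 5.90e-18). Esrrb, a naive-state factor, fell from 370.1, 376, 322 and 367 CPM to 60.9, 24.3, 27.0 and 13.6 CPM (log2 fold change -3.60 ± 0.29, adjusted p = 3.24e-11). Nr0b1 fell from 36.5, 35.1, 28.6 and 23.9 CPM to 2.22, 0.944, 1.23 and 0.280 CPM (log2 fold change -4.78 ± 0.29, adjusted p = 4.84e-15). These markers of embryonic stem cells were present in every early library, and the late libraries held them at lower levels.

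The size of the fall varied widely among members. Fgf4, the growth factor that drives exit from the naive state, went from 225, 251, 147 and 156 CPM to 11.6, 2.56, 5.36 and 2.10 CPM (log2 fold change -5.18 ± 0.31, adjusted p = 6.54e-14), whereas Sox2, which is shared with neural progenitors, went from 88.1, 110.3, 84.9 and 90.0 CPM to 46.8, 35.9, 31.6 and 51.7 CPM (log2 fold change -1.16 ± 0.15, adjusted p = 5.14e-08). Klf5 had the smallest naive-list change (log2 fold change -0.44 ± 0.17, adjusted p = 0.0286), and its call was lost with 48 h alone as late (adjusted p = 0.535) and without either 6 h library or the second library of 4 h, 48 h or 74 h (0.0523 to 0.149). Lin28a and Lin28b, which block maturation of let-7 microRNAs, rose: Lin28b had 58.3, 47.3, 72.0 and 58.6 CPM early and 202, 155, 143 and 172 CPM late (log2 fold change 1.51 ± 0.13, adjusted p = 1.34e-11), and Lin28a changed by 0.57 ± 0.13 on the log2 scale, a call that 48 h alone did not give (adjusted p = 0.0583).

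Of 14 genes of the formative and primed states, 4 were higher and 7 lower, a median log2 fold change of -0.25. Etv5, a factor downstream of FGF signalling, fell from 318, 296, 336 and 318 CPM to 128, 75.0, 48.3 and 29.6 CPM (log2 fold change -2.33 ± 0.19, adjusted p = 6.41e-12), and Otx2 fell from 5.70, 4.45, 9.79 and 8.44 CPM to 2.12, 0.405, 0.766 and 0.700 CPM. The members that rose were Sox3, Sox4, Sox11 and Fgf15, which are also known from early neural tissue; Sox11 had 7.70, 9.53, 7.83 and 9.14 CPM early and 44.0, 41.7, 56.5 and 100.01 CPM late (log2 fold change 2.76 ± 0.20, adjusted p = 3.01e-13).

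**Figure D2:**
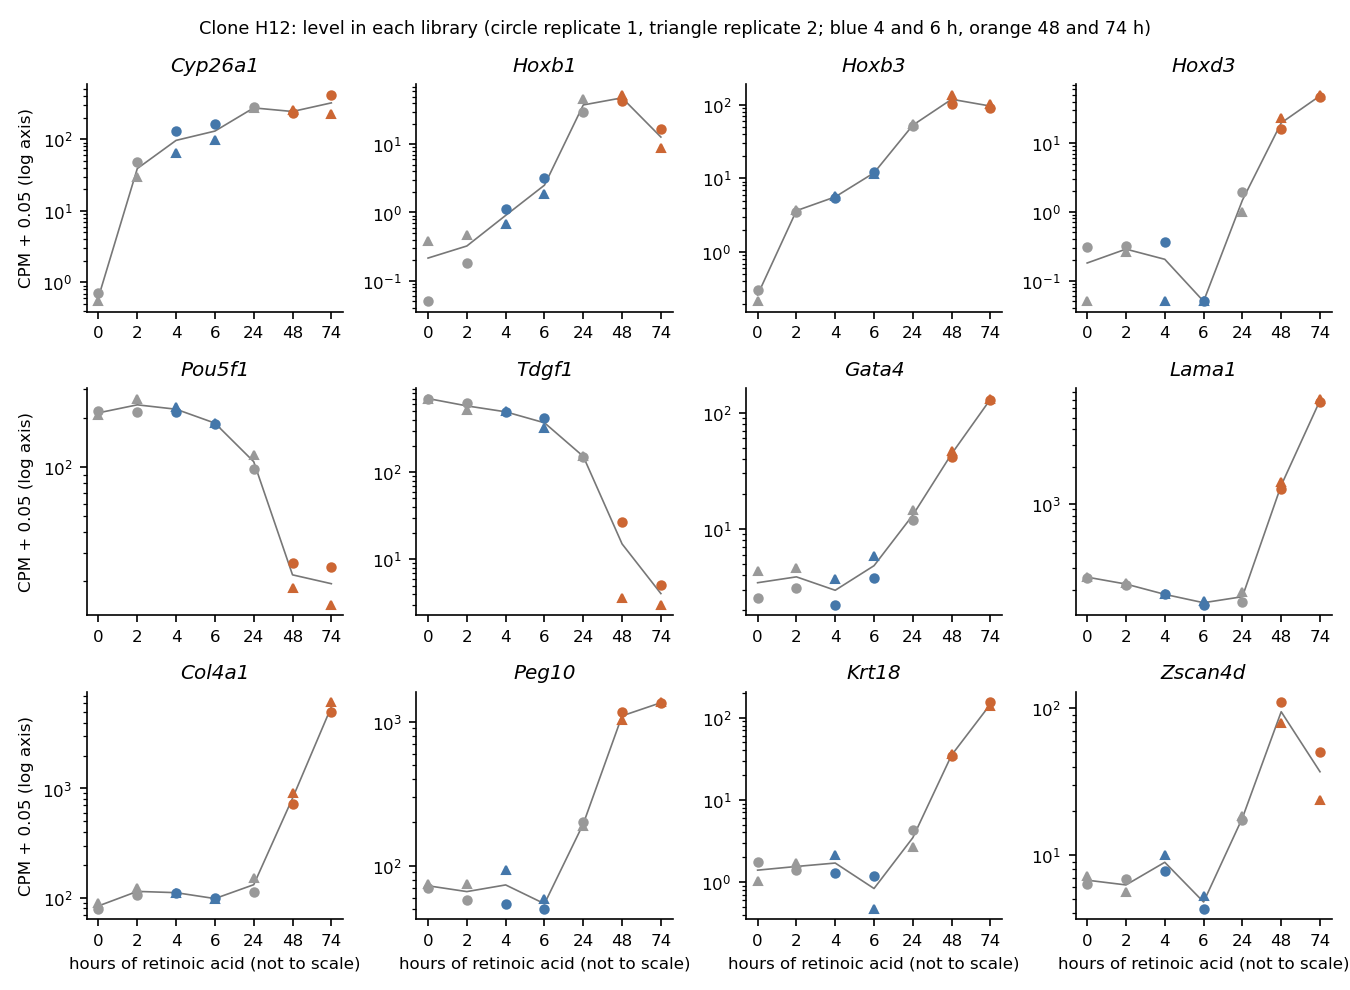
CPM + 0.05 on a log axis (vertical) of 12 genes in every H12 library at 7 times from 0 to 74 h of RA (horizontal, not to scale), with a line through the means of the 2 libraries per time. Early libraries are blue and late ones orange; Lama1 and Col4a1 rise between 24 h and 74 h, Pou5f1 and Tdgf1 fall, and Hoxb1 and Zscan4d are lower at 74 h than at 48 h.

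Many genes known from extra-embryonic endoderm, an RA-induced fate whose cells secrete basement membrane, rose, to late levels that differed widely among them. Of 10 endoderm transcription factors tested, 8 were higher late and 0 were lower (median 3.23). Gata4, a master factor of this fate, had 2.16, 3.65, 3.75 and 5.77 CPM early, 41.3 and 46.9 CPM at 48 h and 129 and 132 CPM at 74 h (log2 fold change 4.34 ± 0.30, adjusted p = 1.53e-13). Sox17 had 0.154, 0.159, 0.326 and 0.281 CPM early, 4.02 and 4.86 CPM at 48 h and 29.6 and 34.0 CPM at 74 h (log2 fold change 5.65 ± 0.42, adjusted p = 3.08e-13). Gata6, which acts with Gata4, rose from 11.3 to 79.1 mean CPM. Foxa2, with 2 early reads, had 2.22, 4.32, 12.3 and 14.1 CPM late and was 99.7-fold higher, with a 95% counting interval of 27.3 to 828. The other 2, Eomes and Hnf4a, were not called, and the listed Gsc was not tested. In RNA of mixed cells, fewer cells of a type and less RNA per cell cannot be told apart, here and in all groups that follow.

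Of 19 genes for basement membrane and endoderm surface proteins, 17 were higher late and 1 lower (median 3.24). Lama1, the alpha chain of laminin-111, had 183, 183, 150.1 and 163 CPM early, 1323 and 1489.7 CPM at 48 h and 6627 and 7130.1 CPM at 74 h (log2 fold change 4.20 ± 0.16, adjusted p = 1.20e-19). The other chains of that laminin rose less: Lamb1 from 215 to 2316 mean CPM (3.08) and Lamc1 from 802 to 3127 (1.73). Cubn, an endocytic receptor of visceral endoderm, rose from 21.7, 36.1, 24.3 and 34.6 CPM to 734, 490.4, 1778 and 1303 CPM (log2 fold change 5.05 ± 0.34, adjusted p = 6.16e-13). Nid1, the linker between laminin and collagen IV, was the member called lower (log2 fold change -1.15 ± 0.12, adjusted p = 8.59e-10), and the related Nid2 was not called.

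Col4a1 and Col4a2 encode the 2 main chains of collagen IV and start 21 bases apart on opposite strands of chromosome 8. Col4a1 had 112, 111, 100.04 and 96.5 CPM early, 719.6 and 909 CPM at 48 h and 5001 and 6149 CPM at 74 h (log2 fold change 4.35 ± 0.19, adjusted p = 7.41e-18). Col4a2 had 47.7, 55.1, 43.6 and 46.3 CPM early, 440.2 and 573 CPM at 48 h and 2998 and 3622 CPM at 74 h (log2 fold change 4.75 ± 0.19, adjusted p = 1.94e-19). Both genes were higher in each late library than in any early one, and both rose again from 48 h to 74 h (log2 fold changes 2.78 ± 0.25 and 2.71 ± 0.23).

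Secreted products of visceral endoderm were mixed, with 6 of 9 higher and 2 lower (median 2.27, also with Ttr at its bound). The summed level of the 9 was 227 to 297 CPM early and 202 to 316 CPM late, so it did not separate early from late libraries. The listed Apoa1 and Cer1 were not tested. Ttr, a thyroid hormone carrier, had no read in the 4 early libraries and 1.59, 2.02, 8.73 and 5.88 CPM late, at least 36.7-fold higher than the level that 3 reads over the early libraries would give. Ihh, a hedgehog ligand, rose from 0.308, 0.477, 1.14 and 0.281 CPM to 1.90, 2.43, 20.7 and 20.6 CPM (log2 fold change 3.64 ± 0.34, adjusted p = 6.27e-11). Apoe fell from 235 to 164 mean CPM, a call that was lost without the first 48 h library (adjusted p = 0.0626) or the second 74 h library (0.0871).

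Factors of neural progenitors rose in 17 of 20 cases and fell in 1 (median 3.48, also with members lacking early reads at their bound). Pax3, a dorsal neural tube and neural crest factor, had 0.308, 0.318, 0.653 and 0.703 CPM early, 21.9 and 26.7 CPM at 48 h and 57.9 and 103 CPM at 74 h (log2 fold change 6.53 ± 0.28, adjusted p = 1.02e-18). Nes, an intermediate filament of progenitors, rose from 12.5, 14.5, 11.1 and 9.001 CPM to 48.1, 63.8, 237 and 362 CPM (log2 fold change 3.48 ± 0.48, adjusted p = 8.54e-07). Sox1, a marker of neurectoderm, rose from 3.39, 3.495, 3.43 and 4.92 CPM to 34.5, 41.3, 24.2 and 71.7 CPM (log2 fold change 3.48 ± 0.25, adjusted p = 1.66e-13). Zic5 was the member that fell (-1.58), and Zic2 and Gbx2 were not called. The listed Olig2, Nkx6-1 and Nkx2-2 had too few reads to be tested. With the 8 libraries fitted alone and 1 mean each for early and late, 10 of 15 tested members rose.

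Genes of differentiating neurons were divided, with 9 of 19 higher and 5 lower (median 1.29); with the 8 libraries fitted alone and 1 mean each for early and late, 11 were tested, with 3 higher and 4 lower. The adhesion molecule Nrcam rose from 6.93, 9.53, 8.98 and 8.02 CPM to 97.2, 95.1, 72.0 and 87.4 CPM (log2 fold change 3.39 ± 0.19, adjusted p = 9.40e-16). Stmn2, Elavl3 and Tubb3, all used as neuronal markers, fell: Stmn2 went from 285, 319, 284 and 233 CPM to 93.8, 46.7, 34.5 and 11.2 CPM (log2 fold change -2.80 ± 0.25, adjusted p = 1.52e-10), and the other two changed by -3.56 and -1.65 on the log2 scale. All early libraries lay above all late ones for Stmn2.

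Of 14 primitive streak and mesoderm factors tested, 10 were higher and 2 lower (median 1.86, also with members lacking early reads at their bound). The listed Mixl1, Msgn1, Mesp1, Mesp2 and Hand1 had too few reads to be tested. Hand2, a cardiac and limb mesoderm factor, had no early read and 1.16, 1.21, 13.3 and 11.2 CPM late, at least 53.1-fold above the level of 3 early reads. The streak gene T, which encodes brachyury, fell from 0.616, 1.11, 1.96 and 1.27 CPM to 0.212, 0.135, 0.460 and 0.280 CPM, and Tcf15 fell by 2.98 on the log2 scale. Among 9 trophoblast factors, 5 were higher and 1 lower; Gata3 rose from 1.08, 2.70, 1.47 and 2.25 CPM to 6.98, 12.1, 30.3 and 27.6 CPM (log2 fold change 3.13 ± 0.27, adjusted p = 9.48e-12), and Tfap2c fell by 2.15. Among 9 mesothelial genes, 5 were higher and none was lower, with Krt19 from 0.770, 0.477, 0.326 and 0.281 CPM to 5.71, 4.18, 34.8 and 29.0 CPM (log2 fold change 4.80 ± 0.56, adjusted p = 2.29e-08). The listed trophoblast factors Elf5 and Ascl2 and mesothelial genes Tcf21 and Muc16 were not tested.

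Adhesion genes changed in both directions (10 of 17 higher, 6 lower). Cdh1, which encodes E-cadherin, fell from 979, 1009, 904 and 834 CPM to 385, 290.4, 406 and 294 CPM (log2 fold change -1.43 ± 0.16, adjusted p = 2.95e-09), and Cdh2, which encodes N-cadherin, rose from 26.0, 20.8, 37.7 and 22.8 CPM to 976, 722, 814 and 979.9 CPM (log2 fold change 5.04 ± 0.26, adjusted p = 1.49e-15). Cdh6 had 8.01, 6.04, 10.8 and 8.16 CPM early, 807 and 753 CPM at 48 h and 290.3 and 343 CPM at 74 h (log2 fold change 5.93 ± 0.20, adjusted p = 8.23e-21). The 3 cadherins separated early from late libraries without overlap.

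All 11 contractile and keratin genes tested were higher late (median 3.25). Krt18, a keratin of simple epithelia, had 1.23, 2.07, 1.14 and 0.422 CPM early, 33.6 and 36.3 CPM at 48 h and 153 and 138 CPM at 74 h (log2 fold change 5.97 ± 0.48, adjusted p = 2.29e-11). Acta2, smooth muscle actin, rose from 1.69, 1.27, 0.979 and 0.422 CPM to 27.7, 15.0, 175 and 102 CPM (log2 fold change 5.74 ± 0.44, adjusted p = 9.68e-12). Of 14 genes of fibrillar collagen and stroma, 12 were higher and 2, Pdgfrb and Thy1, were lower (median 4.29, or 3.88 with Postn at its bound). The call of Thy1 was lost without the second library of 4 h, 6 h or 74 h (adjusted p from 0.0614 to 0.105). Pdgfrb had 4.82 and 5.77 CPM before RA, 31.7 to 49.1 CPM early and 13.6 to 26.3 CPM late. Col1a1 rose from 2.92, 4.77, 3.26 and 4.08 CPM to 42.7, 61.5, 255 and 213 CPM (log2 fold change 4.87 ± 0.40, adjusted p = 4.92e-11), and Fbn2, a fibrillin of embryonic microfibrils, from 20.3, 15.7, 25.5 and 16.2 CPM to 528, 465, 885 and 781 CPM (log2 fold change 5.06 ± 0.18, adjusted p = 1.06e-20).

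Imprinted genes, which are expressed from 1 parental copy and govern fetal growth, rose in 18 of 22 cases and fell in 3 (median 2.98). H19 and Igf2, which share an imprinting control region, rose together: H19 had 2.00, 3.34, 2.94 and 2.11 CPM early and 70.5, 58.5, 299 and 345 CPM late (log2 fold change 5.80 ± 0.22, adjusted p = 5.54e-20), and Igf2 5.23, 4.77, 3.26 and 2.67 CPM and 117, 103, 501 and 330.1 CPM (log2 fold change 5.79 ± 0.21, adjusted p = 3.64e-20). Peg10 and Sgce start 102 bases apart on opposite strands of chromosome 6; Peg10 rose from 54.3, 92.8, 50.3 and 58.6 CPM to 1165, 1024, 1341 and 1360.0 CPM (log2 fold change 4.26 ± 0.21, adjusted p = 8.77e-17) and Sgce from 4.93, 5.40, 8.98 and 10.1 CPM to 137, 120.3, 91.1 and 108 CPM (log2 fold change 4.01 ± 0.14, adjusted p = 1.87e-20). Mest had 156, 135, 124 and 94.7 CPM early and 1319, 1074, 1427 and 1089 CPM late (log2 fold change 3.28 ± 0.17, adjusted p = 2.18e-16).

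Airn, the antisense RNA of the Igf2r domain, rose from 22.4 to 609.7 mean CPM and Igf2r from 337 to 807. The 2 spans overlap on opposite strands, and the table does not state whether counting used the strand, so their reads cannot be told apart. The imprinted genes that fell were Phlda2 (-1.93), Snrpn (-0.72) and Impact (-0.50). With 48 h alone as late, Snrpn and Impact were not called (adjusted p = 0.212 and 0.138).

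All 12 tested genes of the 2-cell-like state, a rare state of stem cell cultures that resembles the cleavage embryo, were higher late (median 3.25). Zscan4d had 7.70, 10.0, 4.24 and 5.20 CPM early, 109.6 and 79.3 CPM at 48 h and 50.1 and 23.5 CPM at 74 h (log2 fold change 3.18 ± 0.24, adjusted p = 6.64e-13), and was lower at 74 h than at 48 h (log2 fold change -1.37 ± 0.28, adjusted p = 4.88e-04). Gm20767 rose from 1.39, 1.91, 2.28 and 1.55 CPM to 50.3, 59.1, 28.6 and 19.5 CPM (log2 fold change 4.35 ± 0.24, adjusted p = 2.36e-16). The Zscan4 and Usp17l genes are families of near-identical copies, so reads may be shared among members and the 12 are not separate observations. Dux, which drives this state, was not tested for lack of reads.

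Of 11 genes for DNA methylation and hydroxymethylation, 7 were lower late and 1 was higher (median -0.68). Tet1, the main 5-methylcytosine oxidase of embryonic stem cells, fell from 1833, 2001, 1641 and 1578 CPM to 195, 123, 88.7 and 86.3 CPM (log2 fold change -3.90 ± 0.17, adjusted p = 8.90e-19). Tet2 fell from 445 to 108 mean CPM (-2.11), while Tet3 rose from 37.4, 35.9, 43.2 and 42.3 CPM to 119, 144, 166 and 259.7 CPM (log2 fold change 2.08 ± 0.13, adjusted p = 2.35e-15). The de novo methyltransferase genes Dnmt3a, Dnmt3b and Dnmt3l fell by less (-0.93, -0.55 and -0.84), and Dnmt1 was not called.

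Polycomb genes, which silence developmental genes including Hox clusters, were divided (8 of 21 higher, 10 lower). Jarid2 and Mtf2, accessory subunits of Polycomb repressive complex 2 in stem cells, fell: Jarid2 had 2775, 2769, 3221 and 2880.4 CPM early and 1173, 746, 627 and 452 CPM late (log2 fold change -2.01 ± 0.15, adjusted p = 5.70e-13), and Mtf2 changed by -1.41. Ezh2, the catalytic subunit, was not called, and Cbx2 and Cbx8 rose (1.54 and 3.05). Of 17 cohesin and CTCF genes, 3 were higher and 11 lower; the lower ones numbered 5 to 12 over the alternatives. The meiotic members moved apart, Rec8 from 12.01, 11.6, 17.1 and 18.99 CPM to 62.9, 89.4, 86.9 and 52.7 CPM (log2 fold change 2.31 ± 0.16, adjusted p = 3.58e-14) and Smc1b from 66.7, 58.1, 93.3 and 76.7 CPM to 33.0, 24.8, 10.3 and 10.4 CPM (log2 fold change -2.07 ± 0.22, adjusted p = 2.39e-09).

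Signalling genes moved in both directions. Of 20 Wnt pathway genes 13 were higher and 4 lower (median 1.64): the ligand Wnt5b rose from 4.00, 7.78, 7.34 and 8.02 CPM to 48.5, 69.2, 52.4 and 57.0 CPM (log2 fold change 3.07 ± 0.18, adjusted p = 2.02e-15) and the agonist Rspo3 from 1.23, 0.635, 2.12 and 1.27 CPM to 20.8, 11.6, 39.7 and 19.2 CPM (log2 fold change 4.11 ± 0.33, adjusted p = 2.03e-12). The Wnt target Axin2 also rose (1.73), and Sp5, with 3 early reads, was 83.3-fold higher, with a 95% counting interval of 28.2 to 406, while Tcf7l1, the Wnt effector that represses pluripotency genes, fell (-1.09).

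Of 19 FGF ligands, receptors and feedback genes 8 were higher and 6 lower. The feedback inhibitor Spry4 fell from 113, 105.3, 120.3 and 109 CPM to 20.2, 6.75, 5.21 and 4.20 CPM (log2 fold change -3.79 ± 0.26, adjusted p = 5.71e-13), and the receptor Fgfr2 rose from 63.9, 59.6, 66.7 and 67.7 CPM to 287, 427, 377 and 496 CPM (log2 fold change 2.61 ± 0.14, adjusted p = 9.86e-17). In the Nodal, activin and BMP group 11 of 18 were higher and 5 lower. Nodal fell from 193, 228, 145 and 163 CPM to 55.4, 30.9, 35.5 and 7.28 CPM (log2 fold change -2.57 ± 0.29, adjusted p = 1.46e-08) with its inhibitor Lefty1 (-1.78, not called with 48 h alone as late, adjusted p = 0.266), while Bmp2 rose from 0.154, 0, 0.490 and 0 CPM to 6.77, 7.28, 14.9 and 28.3 CPM (log2 fold change 6.33 ± 0.56, adjusted p = 1.95e-11) and the BMP targets Id1, Id2 and Id3 rose (2.06, 2.20 and 2.99). Of 11 LIF and STAT3 genes 3 were higher and 2 lower.

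Immediate early genes, which respond to growth factors and to handling of cells, were higher in 11 of 14 cases and lower in 1 (median 1.41). Jun had 4.00, 4.61, 3.10 and 3.38 CPM early and 38.1, 43.4, 71.7 and 66.5 CPM late (log2 fold change 3.82 ± 0.37, adjusted p = 9.14e-10), and Fosl2 0.462, 1.43, 1.14 and 1.55 CPM and 17.7, 30.6, 33.4 and 65.4 CPM (log2 fold change 4.91 ± 0.38, adjusted p = 3.38e-12). Their summed level ran from 93.8 to 138 CPM in the early libraries and from 265 to 458 CPM in the late ones, and its part in other changes was not tested. Targets of the integrated stress response and p53 were split evenly (5 of 18 higher, 5 lower, median 0.01).

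Of 28 replication and mitosis genes 4 were higher and 12 lower (median -0.29). The cyclins differed: Ccne1, a G1/S cyclin abundant in stem cells, fell from 105.5, 125, 98.6 and 95.2 CPM to 43.8, 40.9, 44.6 and 48.6 CPM (log2 fold change -1.25 ± 0.11, adjusted p = 1.63e-11), and Ccnd2 rose from 14.3, 13.8, 21.4 and 12.7 CPM to 50.5, 45.6, 131 and 206 CPM (log2 fold change 2.54 ± 0.17, adjusted p = 4.41e-14). The inhibitor Cdkn2a rose from 1.84 to 13.3 mean CPM. Of 17 genes of glycolysis and glucose uptake 12 were lower and 3 higher (median -0.46). Pfkp, a phosphofructokinase, fell from 214, 194, 245 and 209 CPM to 64.0, 42.8, 41.7 and 36.8 CPM (log2 fold change -2.23 ± 0.13, adjusted p = 1.25e-15), and Pdk1, which keeps pyruvate out of mitochondria, changed by -1.79. The glucose transporters Slc2a1 and Slc2a3 were higher late (0.51 and 0.47), calls lost without the second 6 h or the first 74 h library (adjusted p from 0.0581 to 0.0845). The third was Tpi1 (0.63), which was not called with 48 h alone as late (adjusted p = 0.701) or 4 h alone as early (0.115).

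A list of noncoding RNAs, which also holds host transcripts of small nucleolar RNAs such as Gas5, was divided as well (5 of 13 higher, 5 lower). Neat1, the scaffold of paraspeckles, rose from 77.4, 95.8, 57.8 and 113 CPM to 248, 419, 196 and 198 CPM (log2 fold change 1.57 ± 0.20, adjusted p = 1.22e-07), and Pvt1, next to Myc, fell from 653, 717, 558 and 579 CPM to 196, 178, 195 and 175 CPM (log2 fold change -1.75 ± 0.17, adjusted p = 4.06e-10). Malat1 had 3625, 3512, 3672 and 3565 CPM early and 4290.2, 5328, 3263 and 4335 CPM late and was not called (adjusted p = 0.0848); it was with DESeq2 (0.0332) and without the first 48 h or the first 74 h library (0.0294 and 0.0142).

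Markers of other cell types were also read. Endothelial and blood markers were higher in 6 of 7 cases and lower in 1, Pecam1, which stem cells express too; Gata1, Ptprc and 3 globin genes had too few reads to be tested. The summed level of this list, in which Pecam1 weighs most early, was 307 to 372 CPM early and 85.4 to 123 CPM late. Runx1 rose from 4.00, 2.86, 3.43 and 5.77 CPM to 29.5, 27.4, 42.7 and 43.4 CPM (log2 fold change 3.13 ± 0.20, adjusted p = 1.68e-14). Cardiac markers were higher in 4 of 7 cases and lower in 1, with 62.5 to 78.1 CPM summed early and 55.3 to 117 CPM late. With the 8 libraries fitted alone and 1 mean each for early and late, 2 of 6 cardiac markers were higher and 1 lower. In that fit 3 of 6 endothelial and blood markers were higher and 1 lower. The cardiac troponin gene Tnnt2 was not tested for lack of reads. Of the skeletal muscle markers Myod1, Myf5 and Myog were likewise not tested, Ttn was lower and Pax7 higher; Pax7 was not called without the second 4 h or the second 74 h library (adjusted p = 0.0877 and 0.0743). Germ cell markers were higher in 1 of 7 and lower in 3, with 266 to 315 CPM summed early and 59.5 to 245 CPM late. The part of such cells in the results was not tested.

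By fitted log2 fold change, the 12 largest rises among genes with at least 5 CPM and no overlap of libraries were Mir99ahg, Cyp1b1, Hoxd3, Col1a2, Hoxc5, Tfap2b, Plppr5, Robo2, Igfbp5, Hoxc4, Tnc and Cp. Mir99ahg (chr16:77329328-77558428), the host RNA of a microRNA cluster, had 0.154, 0, 0.490 and 0.422 CPM early and 764, 469, 436 and 406 CPM late (log2 fold change 11.23 ± 0.45, adjusted p = 8.32e-18). Cyp1b1 (chr17:79706953-79715041), a cytochrome that can make RA from retinol, had 0.770, 0.159, 0 and 0 CPM early and 131, 131, 100.5 and 100.4 CPM late (log2 fold change 10.27 ± 0.42, adjusted p = 3.15e-18). Both were close to 0 in early libraries and above 100 CPM in all late ones.

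Col1a2 (chr6:4505697-4541543), a chain of collagen I, rose from 1.08, 0.635, 0.979 and 0.703 CPM to 244, 328, 647 and 699 CPM (log2 fold change 8.99 ± 0.49, adjusted p = 9.54e-15). Robo2, an axon guidance receptor, rose from 0.616, 0.635, 2.45 and 0.844 CPM to 348, 304, 371 and 462 CPM (adjusted p = 3.21e-18), and Igfbp5, a carrier of insulin-like growth factors, from 0.308, 0, 0.490 and 0.422 CPM to 52.2, 59.8, 173 and 186 CPM (log2 fold change 8.45 ± 0.33, adjusted p = 1.91e-19). Tnc, the matrix protein tenascin C, rose from 0.462, 0.318, 0.326 and 0 CPM to 66.1, 41.7, 140.3 and 123 CPM (log2 fold change 8.33 ± 0.47, adjusted p = 6.49e-15). Tfap2b, a neural crest and ectoderm factor with 1 early read, had 5.82, 8.23, 25.1 and 52.7 CPM late and was 559-fold higher, with a 95% counting interval of 100.03 to 22122.

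Plppr5 had no early read and 5.61, 6.07, 9.34 and 5.18 CPM late, at least 55.7-fold above the level of 3 reads over the early libraries; its place among the 12 rests on the fitted value, and at this bound other genes, such as Pax3, rose more. Cp, the copper carrier ceruloplasmin, had 24.1, 29.0, 26.3 and 71.0 CPM late against 3 early reads and was 319-fold higher, with a 95% counting interval of 109 to 1548; Hps3 overlaps it on the opposite strand. The intervals cover counting error only, and the ratios of these genes rest on the few early reads.

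The 12 largest falls were Nphs1os, Nphs1, Lrrc2, Cdk15, Inhbb, Kirrel2, Igsf21, Tdgf1, 1700057H21Rik, Pla2g10, Notch4 and Platr10. They include 2 groups of neighbours. Nphs1 (chr7:30460058-30488609), which encodes the kidney slit diaphragm protein nephrin, fell from 214, 229, 191 and 197 CPM to 2.54, 0.809, 1.23 and 0.140 CPM (log2 fold change -7.56 ± 0.30, adjusted p = 9.48e-19). Kirrel2 (chr7:30447766-30457515), a nephrin-like gene that starts 2543 bases away on the opposite strand, fell from 36.0, 33.7, 36.1 and 29.7 CPM to 0.529, 0.135, 0.919 and 0.280 CPM (log2 fold change -6.16 ± 0.25, adjusted p = 2.02e-19). Nphs1os lies within Nphs1 on the other strand and had 434 early and 5 late reads, which cannot be told apart from reads of Nphs1.

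Tdgf1 (chr9:110939608-110946158), the Nodal co-receptor Cripto, fell from 486, 499, 419 and 319 CPM to 26.5, 3.51, 5.05 and 2.94 CPM (log2 fold change -5.76 ± 0.37, adjusted p = 3.14e-13). The first 48 h library was higher than the other 3 late ones. Lrrc2 (chr9:110951545-110984064), whose start lies 5387 bases from that of Tdgf1 on the opposite strand, fell from 45.9, 57.7, 54.3 and 50.5 CPM to 1.69, 0.270, 0.153 and 0.280 CPM (log2 fold change -6.69 ± 0.27, adjusted p = 2.74e-19), and again the first 48 h library was the highest late one. Inhbb, an activin subunit, fell from 155, 148, 142 and 122 CPM to 4.13, 0.270, 2.14 and 0.981 CPM (log2 fold change -6.19 ± 0.32, adjusted p = 9.83e-16), and Notch4 from 173, 136, 170.0 and 120.0 CPM to 2.96, 1.35, 4.29 and 3.22 CPM (log2 fold change -5.68 ± 0.25, adjusted p = 7.35e-18).

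Among the rest, Cdk15, a cyclin-dependent kinase, fell by 6.39, Igsf21 by 5.91, the phospholipase Pla2g10 by 5.71 and the noncoding RNA Platr10 by 5.63 on the log2 scale. The early level of Cdk15 (69.9, 45.9, 80.0 and 69.8 CPM) lay above that before RA (5.86 and 4.29 CPM). 1700057H21Rik had 159 early and 3 late reads. Pla2g10os overlaps Pla2g10 on the opposite strand.

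**Figure D3:**
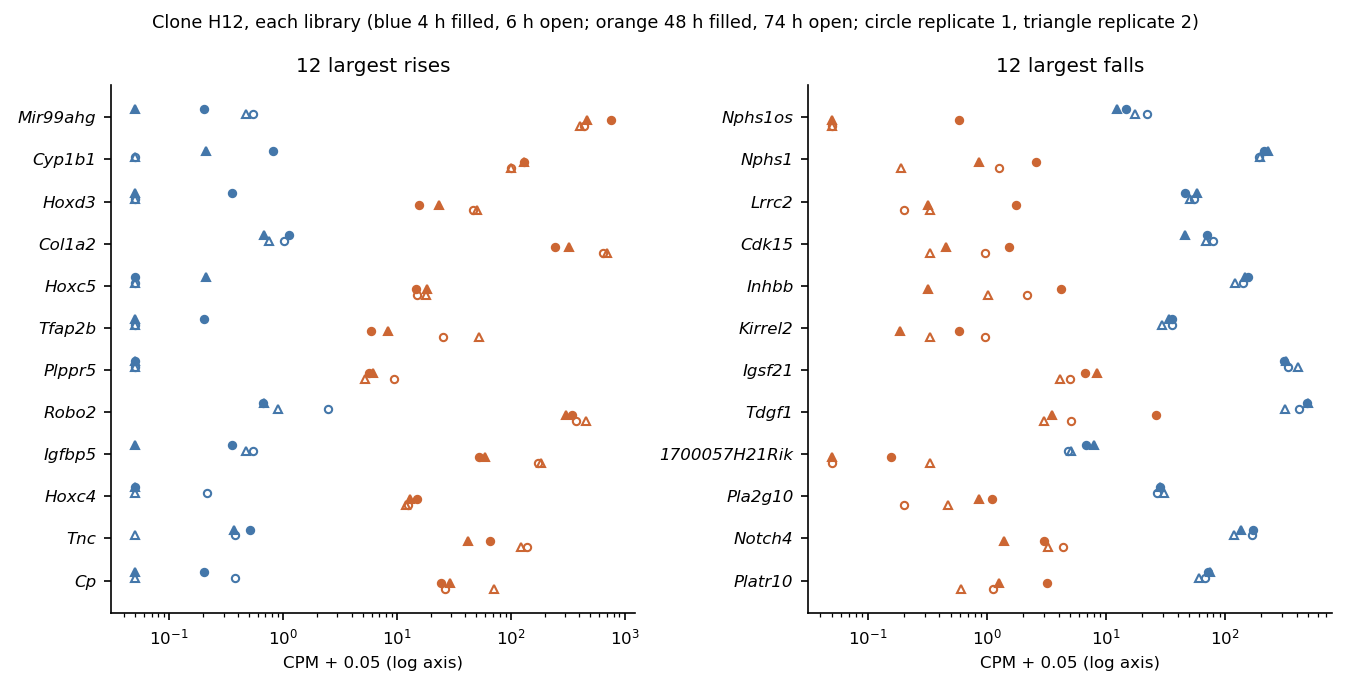
CPM + 0.05 on a log axis of the 12 genes with the largest rise (left) and fall (right), with a point for each of the 8 H12 libraries (circle replicate 1, triangle replicate 2; blue 4 h and 6 h, orange 48 h and 74 h, open for 6 h and 74 h). Early and late points do not overlap in any row, which the choice of these genes required, and Tdgf1 and Lrrc2 have their highest late point in the first 48 h library.

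The late time points differed from each other. From 48 h to 74 h, 2826 genes rose (17.7% of genes tested) and 2875 fell (18.1%), with a median over all genes of -0.04. Of the 3020 genes that were higher late by at least 2-fold, 806 were also higher at 74 h than at 48 h. In that step 507 were lower and 1707 were not called. Of the 1953 that were lower late, 542 were also lower at 74 h than at 48 h and 87 were higher. The late mean includes 74 h, so these counts do not show which genes had already changed by 48 h. The count of 5701 called genes was 2597 without the first 48 h library and 2757 without the second 74 h library.

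Many matrix and endoderm genes rose from 48 h to 74 h. Among basement membrane and endoderm surface genes 17 of 19 rose and none fell from 48 h to 74 h (median 1.56), among endoderm factors 7 of 10 rose (median 1.33), and among contractile and keratin genes 9 of 11 rose (median 1.99). Lama1 rose by 2.29 ± 0.21 (adjusted p = 8.38e-09) and Sox17 by 2.84 ± 0.34 (adjusted p = 4.48e-07) on the log2 scale. Replication genes rose in 16 of 28 cases in this step, and glycolysis genes in 8 of 17. The 2-cell-like genes went the other way, with 8 of 12 lower at 74 h than at 48 h (median -1.20), as did 8 of 17 cohesin and CTCF genes.

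The 6 largest rises from 48 h to 74 h were Fat4, Col3a1, Pga5, Gdf10, Ptx3 and Thbs2. Col3a1, a fibrillar collagen, had 14.2 and 5.40 CPM at 48 h and 257 and 138 CPM at 74 h (log2 fold change 4.30 ± 0.44, adjusted p = 1.32e-07). Fat4, a large atypical cadherin, had 5.93 and 3.78 CPM and 163 and 74.8 CPM (4.59 ± 0.29, adjusted p = 2.89e-12). Thbs2, a thrombospondin, had 2.96 and 4.72 CPM and 26.3 and 78.7 CPM. The higher 74 h library was replicate 1 for Col3a1 and Fat4 and replicate 2 for Thbs2. Pga5, Gdf10 and Ptx3 rose to 17.3 and 15.4, 5.67 and 8.54 and 16.8 and 7.14 CPM. Veph1 overlaps Ptx3 on the opposite strand.

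The 6 largest falls in that step were Csn3, 0610005C13Rik, Kcnj3, Nrg3, Itga2 and Frmpd4. Bcat2 overlaps 0610005C13Rik on the opposite strand. Nrg3, an ERBB4 ligand of the nervous system, was low early (3.39, 1.59, 5.71 and 3.52 CPM), had 243 and 236 CPM at 48 h and dropped to 28.0 and 21.9 CPM at 74 h (log2 fold change -3.26 ± 0.28, adjusted p = 2.65e-09). Itga2, an integrin that binds collagen, peaked likewise at 48 h, with 29.6 and 36.8 CPM then and 5.21 and 1.96 CPM at 74 h. Kcnj3, a potassium channel gene, had 36.9, 51.2, 64.0 and 50.4 CPM early, 77.9 and 33.1 CPM at 48 h and 8.12 and 1.82 CPM at 74 h. Csn3 differed between its 48 h libraries (29.0 and 12.7 CPM), as Kcnj3 did, the first being higher in both.

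The call of Tdgf1 rested on single libraries in this step. Tdgf1 was called lower at 74 h than at 48 h (log2 fold change -1.96 ± 0.59, adjusted p = 0.0123), and without the first 48 h library its difference was 0.18 (adjusted p = 0.876). Without the second 74 h library it was not called either (adjusted p = 0.141). Pou5f1 had 25.7 and 18.1 CPM at 48 h and 24.4 and 14.3 CPM at 74 h and was not called (adjusted p = 0.522).

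**Figure D4:**
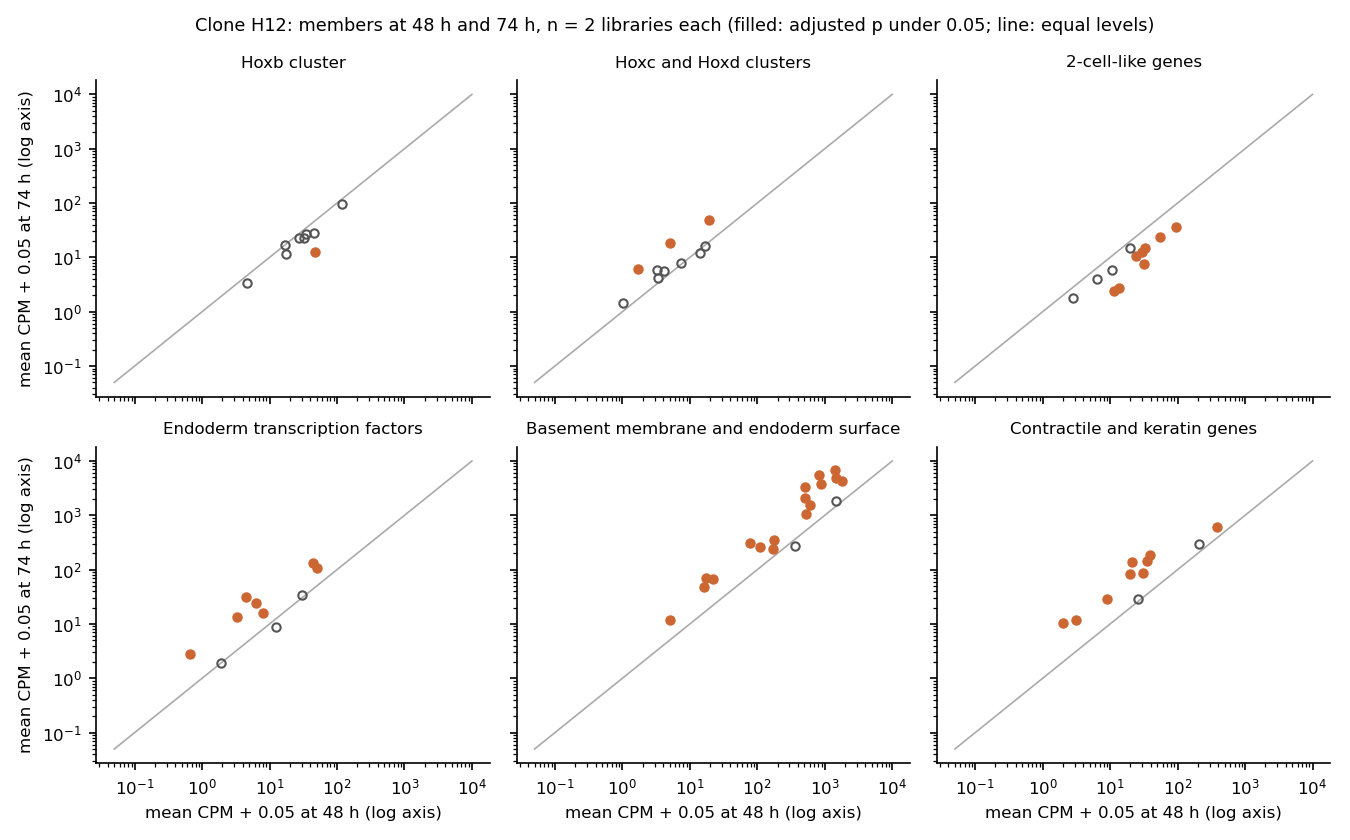
Mean CPM + 0.05 at 48 h (horizontal) against 74 h (vertical), both on log axes, for members of 6 gene lists in clone H12, 2 libraries per time; filled points were called between the 2 times and the line marks equal levels. Of 19 basement membrane genes 17 lie above the line and are filled, and 8 of 12 2-cell-like genes lie below it and are filled.

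The early times were close to each other. No gene was called between 6 h and 4 h in edgeR's quasi-likelihood test (1246 genes had an unadjusted p under 0.05, the lowest adjusted p was 0.118). DESeq2 called 20 genes, all higher at 6 h, among them Hoxa3 (log2 fold change 1.31, adjusted p = 0.00175), Hoxb3 (1.09, adjusted p = 0.0483) and Stra6 (0.96, adjusted p = 0.0329). limma called 3, Cacnb2, Eya1 and Setbp1 (each with adjusted p = 0.0158). These genes are named after their values were seen, and Hoxb3 and Hoxa3 are members that went on to rise late.

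The late response of H12 was then set against that of the other clones, by testing the difference between the 2 responses. The difference is signed, so a higher response is a larger rise, a smaller fall, or a rise where the other clone fell. Both comparisons use the same H12 libraries. Against wild-type clone G4, 1567 genes had a higher response in H12 (9.84%) and 792 a lower one (4.97%). Against deletion clone E3, 1157 had a higher response in H12 (7.27%) and 557 a lower one (3.5%). Counts of list members called in these 2 comparisons are to be read against these shares. E3 carries the same deletion label as H12, so these numbers include differences between clones of 1 genotype.

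By its definition, a higher response comes from a lower early level, a higher late level or both, relative to the other clone. Of the 1567 genes against G4, 1409 had an early mean in H12 below that in G4 and 1284 a late mean above it; in 511 the early mean was at least 2-fold below with the late mean within 2-fold, and in 250 the late mean was at least 2-fold above with the early mean within 2-fold. Against E3 the same 4 counts were 1075, 852, 465 and 158 of 1157. Tagln, an actin-binding protein of smooth muscle, had early and late means of 1.22 ± 0.564 and 114 ± 88.1 CPM in H12, 41.8 ± 13.6 and 80.0 ± 27.2 CPM in G4, and 29.0 ± 9.41 and 188 ± 64.7 CPM in E3 (SD, n = 4). Thbs1, thrombospondin 1, had early and late means of 8.24 ± 1.76 and 389 ± 115 CPM in H12, 185 ± 60.1 and 302 ± 124 CPM in G4, and 153 ± 48.4 and 269 ± 88.7 CPM in E3. The early means of these 2 genes were lower in H12 than in the other clones. Pcsk7 overlaps Tagln on the opposite strand, so reads of those genes may not be separate.

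The 6 genes with the largest excess over G4 were Tnc, Col1a2, Gbp2b, Csf1, Slc39a8 and Tagln, and each had a lower early mean in H12. Ranking by this difference favours genes with low early levels in H12, so that pattern is not a separate finding. Csf1, the macrophage growth factor, had early and late means of 0.389 ± 0.268 and 40.9 ± 15.95 CPM in H12, 11.3 ± 0.386 and 24.7 ± 3.19 CPM in G4, and 5.73 ± 0.951 and 39.4 ± 9.33 CPM in E3, and Slc39a8, a zinc transporter, 1.32 ± 0.440 and 19.1 ± 8.82 CPM in H12, 26.1 ± 12.1 and 8.39 ± 1.05 CPM in G4, and 11.6 ± 3.95 and 11.0 ± 1.62 CPM in E3. Gbp2b, an interferon-inducible GTPase, fell late in G4 and rose in H12. Against E3 the 6 were Pga5, Thbs1, Kcnk13, Stmn4, Runx1 and Fgfbp1. Runx1 had 4.01 ± 1.26 and 35.8 ± 8.49 CPM in H12, 11.5 ± 1.02 and 8.07 ± 3.43 CPM in G4, and 10.4 ± 0.567 and 5.75 ± 1.104 CPM in E3, and its H12 response exceeded both others (differences of 3.66 from G4, adjusted p = 1.44e-10, and 3.97 from E3, adjusted p = 4.99e-11). Kcnk13, a potassium channel gene, and Pga5, a pepsinogen gene, also rose in H12 and not in the means of the other clones.

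The responses that were lowest in H12 against G4 were those of Srpx, Robo3, Unc5a, Drd2, Nlgn1 and Cdh22. Against E3 they were those of Upk3b, Wnt6, Pdgfrb, Cdh22, Draxin and Flrt1. Macrod1 overlaps Flrt1 on the opposite strand. In the list of differentiating neurons, 2 of 19 responded more and 3 less against G4, and 3 and 2 against E3. Unc5a, a netrin receptor, had early and late means of 3.05 ± 0.579 and 11.2 ± 7.93 CPM in H12, 1.57 ± 0.637 and 66.4 ± 57.9 CPM in G4, and 1.54 ± 0.250 and 27.3 ± 24.0 CPM in E3; Hk3 overlaps it on the opposite strand. Nlgn1, a synaptic adhesion protein, had 2.79 ± 1.18 and 10.5 ± 3.40 CPM in H12, 1.54 ± 0.307 and 48.6 ± 34.5 CPM in G4, and 2.49 ± 0.405 and 20.9 ± 7.52 CPM in E3. Draxin, a guidance cue, had 3.96 ± 0.776 and 19.1 ± 16.2 CPM in H12, 2.20 ± 0.255 and 43.8 ± 36.0 CPM in G4, and 1.25 ± 0.0845 and 41.7 ± 36.1 CPM in E3. Cdh22, a cadherin, went from 13.7 ± 1.55 to 6.13 ± 1.92 CPM in H12, where it had 3.91 and 4.45 CPM before RA. It went from 1.97 ± 0.653 to 5.90 ± 1.92 CPM in G4 and from 1.78 ± 0.815 to 4.85 ± 1.05 CPM in E3. Its H12 response differed from both (adjusted p = 1.93e-07 and 4.63e-07).

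**Figure D5:**
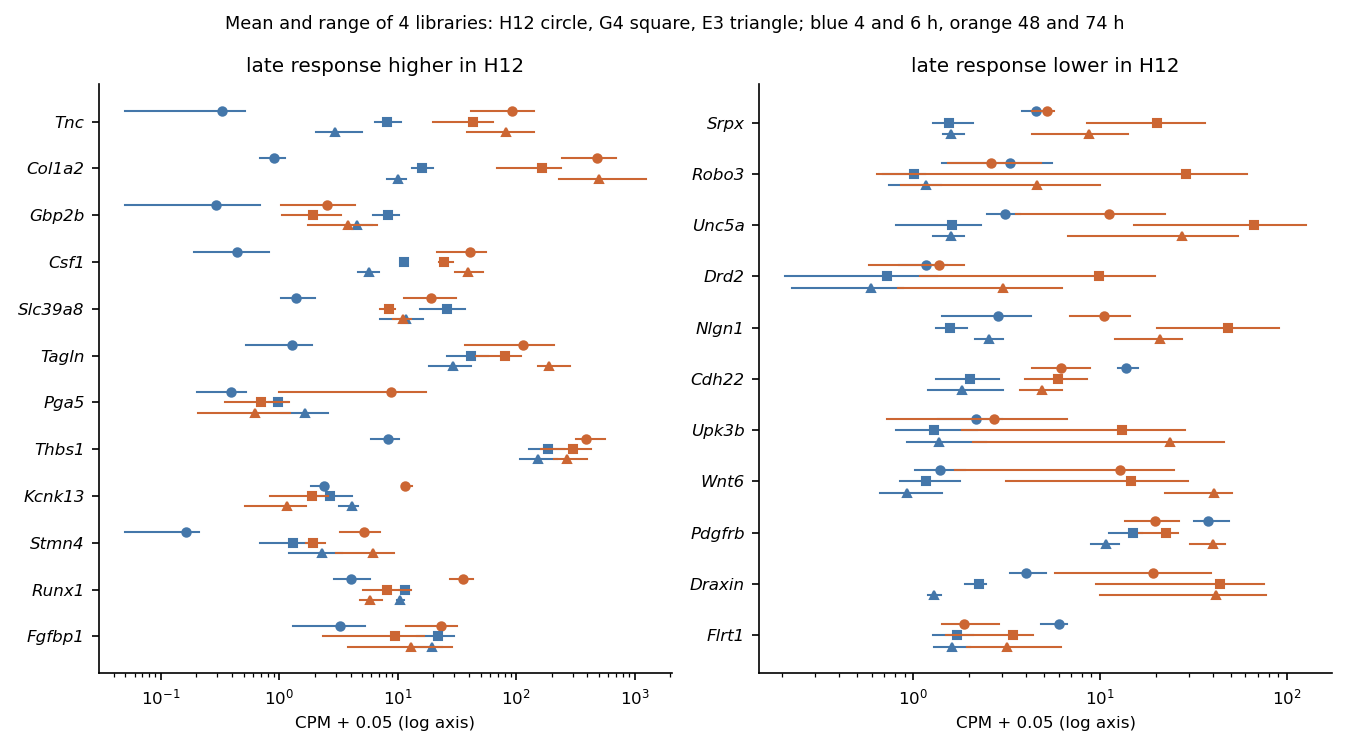
Mean and range over 4 libraries of CPM + 0.05 (log axis) at 4 and 6 h (blue) and at 48 and 74 h (orange) in clones H12 (circle), G4 (square) and E3 (triangle), for the genes whose late response was most above (left) or below (right) that of another clone. In most rows on the left, such as Tnc, Tagln and Thbs1, early levels were lower in H12 than in the other clones. Ranking by the difference in response favours such genes.

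Within the gene lists, Hoxb1 responded more in H12 than in G4 (difference 1.73 ± 0.48, adjusted p = 0.013) and than in E3 (1.62 ± 0.50, adjusted p = 0.0328). Its early and late means were 1.66 ± 1.08 and 30.2 ± 20.9 CPM in H12, 4.30 ± 1.73 and 27.1 ± 21.5 CPM in G4, and 3.90 ± 2.71 and 20.1 ± 13.1 CPM in E3. The difference from E3 passed the threshold narrowly: leaving out either 4 h library, the second 6 h library, the second 48 h library or the first 74 h library gave adjusted p from 0.0513 to 0.101. Hoxb2 differed from E3 (1.39 ± 0.46, adjusted p = 0.0481) and not by the test from G4 (adjusted p = 0.193); leaving out any library but the first 6 h one lost the first call (adjusted p from 0.053 to 0.163). Hoxb3 responded less in H12 than in G4 (-0.77 ± 0.22, adjusted p = 0.0165), with early and late means of 8.68 ± 3.63 and 107 ± 19.9 CPM in H12, 9.88 ± 1.68 and 236 ± 102 CPM in G4, and 7.89 ± 3.02 and 113 ± 39.4 CPM in E3. For the other 6 Hoxb genes neither difference passed the test.

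Basement membrane and endoderm surface genes responded more in H12 in 17 of 19 cases against G4 (median difference 1.64) and in 15 against E3 (1.64), where all genes had medians of 0.00 and -0.02. Lama1 had early and late means of 170.1 ± 16.3 and 4143 ± 3167 CPM in H12, 199 ± 9.38 and 687 ± 183 CPM in G4, and 298 ± 64.9 and 589 ± 185 CPM in E3 (differences 2.43 ± 0.21 and 3.24 ± 0.21). Gata4 had 3.83 ± 1.48 and 87.2 ± 49.9 CPM in H12, 3.22 ± 1.26 and 10.0 ± 6.97 CPM in G4, and 5.26 ± 2.28 and 14.2 ± 7.38 CPM in E3 (differences 2.85 ± 0.47 and 3.04 ± 0.43, adjusted p = 5.86e-05 and 9.54e-06). Other lists moved the same way: endothelial and blood markers responded more in 6 of 7 cases against G4 (median difference 2.89) and 4 against E3 (1.73), and immediate early genes in 8 of 14 against G4 (1.42) and 1 against E3 (0.44). Their part in the basement membrane result was not tested. Contractile and keratin genes responded more in 11 of 11 cases against G4 and 7 against E3. Their summed level ran from 116 to 131 CPM early and 761 to 1696 CPM late in H12. It was 365 to 565 and 887 to 1156 CPM in G4, and 366 to 557 and 1495 to 1872 CPM in E3. Early it was thus lower in H12 than in both other clones, and late it overlapped both. Immediate early genes summed to 93.8 to 138 CPM early in H12, 197 to 253 in G4 and 155 to 180 in E3. Late sums were 265 to 458, 223 to 381 and 312 to 558 CPM.

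More genes of the general than of the naive pluripotency list differed from the other clones by the test. The response was higher in H12 than in G4 in 10 of 15 genes of the general list, which contains 2 genes that rose. Against E3 it was higher in 7. In the naive list it was higher in 3 of 16 against G4 and 1 against E3. No gene of either list had a lower response. For a gene that fell, a higher response means a smaller fall. The median log2 fold change of the general list was -2.08 in H12, -3.29 in G4 and -2.53 in E3. That of the naive list was -2.54, -3.47 and -2.86, so both lists moved in the same direction. The median difference from G4 was 1.21 in the general list and 0.73 in the naive list. From E3 it was 0.52 and 0.48, which are close. Pou5f1 had early and late means of 207 ± 24.5 and 20.6 ± 5.37 CPM in H12, 219 ± 13.4 and 8.76 ± 7.003 CPM in G4, and 171 ± 17.5 and 10.3 ± 6.94 CPM in E3 (differences 1.76 ± 0.23, adjusted p = 2.22e-06, and 1.00 ± 0.23, adjusted p = 0.00262). Cyp26a1 had 113 ± 42.0 and 284 ± 90.4 CPM in H12, 182 ± 76.0 and 189.7 ± 132 CPM in G4, and 173 ± 62.5 and 187 ± 119 CPM in E3, and its difference from E3 (adjusted p = 0.024) was lost without the second 4 h, second 6 h or first 74 h library (adjusted p from 0.0744 to 0.0856). Against G4, the response was higher in 0 and lower in 1 of 17 cohesin and CTCF genes. For replication genes these counts were 1 and 2 of 28, and for glycolysis genes 1 and 2 of 17. Over all genes tested 9.84% were higher and 4.97% lower, and counts this small do not set these lists apart.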

How the data were processed

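Nuclear RNA of the 3 clones was sequenced after ribosomal RNA depletion with a directional kit, with Drosophila SG4 cells mixed in for calibration, per the labels' protocols. The authors deposited normalised signal per RefSeq transcript, that is reads divided by 1 size factor per library; STAR, Bowtie2, SAMtools and DESeq2 and the builds mm10 and dm6 are named in the submitters' processing notes, without versions or roles. The counting program and its use of strand are not given in the sources used here. Counting covered whole gene spans, introns included: all 3746 sets of transcripts with the same span had equal values. The scaling does not use the Drosophila reads, so changes in total RNA per cell are not measured.

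Each library's size factor was found from the steps between low values, and 100% of the deposited signal values came out as whole reads within 0.1 read. Each gene symbol took its transcript with the highest share of reads; 81 of 29039 transcripts had no name. In all 42 clone libraries there were 19482 genes with reads, of which edgeR's filter kept 15923, holding 99.93% of reads. The main test was edgeR 4.0.16 (quasi-likelihood, robust, TMM, 1 mean for each of 21 clone and time groups) in R 4.3.3, with Benjamini-Hochberg adjustment over all genes tested. An approximate SE comes from each fold change and its F value. Alternatives used DESeq2 1.42.0, limma 3.58.1, other scaling and filters, single times and leaving out each library. On simulated data for the late against early comparison (14968 genes tested), 94 of 100 genes changed 2-fold and 97 of 100 changed 4-fold were recovered, with 16 false calls. The simulation gave every library the early H12 means and 1 spread for all genes, and changed only genes of at least 1 CPM. In the real data most genes were called and many named genes had few early reads, so these figures do not measure the real comparison. Total reads of 6044542 or more per library set the precision, and genes with fewer than 4 reads in a group are given as read ratios with counting intervals.

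The largest changes named are the 12 per direction (6 for other comparisons) with an adjusted p under 0.05, no overlap of libraries where that applies, and a mean of at least 5 CPM in the higher group; members named within lists were picked for level, size of change or role with values in view. The libraries compared, members and lists were set with earlier results of these data known. Gene positions are mm10 and 1-based. Promoter sequences are from RefSeq, build GRCm38.p6. Other deposited tables, of other cells and treatments, were not used apart from gene positions.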

Additional observations from a re-analysis of the deposited data

Results flagged for a closer look

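The late response of H12 differed from that of the wild-type clone G4, by a test of the difference itself, in 1567 genes where H12 was higher and 792 where it was lower. On the log2 scale the largest excesses were those of Tnc (6.02), Col1a2 (5.76), Gbp2b (5.64), Csf1 (5.58), Slc39a8 (5.41) and Tagln (5.18). The largest deficits were those of Srpx (-3.31), Robo3 (-3.3), Unc5a (-3.15), Drd2 (-2.95), Nlgn1 (-2.79) and Cdh22 (-2.77). The response differed from that of deletion clone E3 in 1157 genes where H12 was higher and 557 where it was lower. The largest excesses over E3 were those of Pga5 (4.93), Thbs1 (4.76), Kcnk13 (4.19), Stmn4 (4.02), Runx1 (3.97) and Fgfbp1 (3.97), and the largest deficits those of Upk3b (-2.99), Wnt6 (-2.97), Pdgfrb (-2.85), Cdh22 (-2.68), Draxin (-2.64) and Flrt1 (-2.6). Each clone is a single line, so clone and deletion cannot be told apart. With 2 libraries per time and clone, no group was large enough to look for a single library apart from the others.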

How the results depend on the processing

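Of 92 recomputed counts of called genes, 87 stayed within 1.5 times the main count. Late against early, 10387 calls became 7265 to 10911, and leaving out single libraries gave 9616 to 9983. The calls between 74 h and 48 h, 5701, became 2597 to 5278 when single libraries were left out. Between 6 h and 4 h, 0 calls became 20 with DESeq2, 3 with limma and 7 with the replicate block. The responses against G4 (2359 calls) and E3 (1714) gave 1878 to 2367 and 1310 to 1634 without single libraries. Of the recomputed values of single genes 4988 kept direction and side of the threshold, 80 lost the call, 6 gained it and 4 changed direction. These last were Pou5f1 from 48 h to 74 h (-0.58 to 0.15 without single libraries), Tdgf1 in the same step (-2.72 to 0.18) and Pax7, late against early (-0.17 with 48 h alone as late). The cause was not tested. Library totals alone as scaling moved the median of all genes to -0.11. Replicate numbers were not taken to pair the libraries, since the differences between replicates 1 and 2 correlated over genes by 0.25, 0.30 and 0.25 between 4 h and 6 h, 6 h and 48 h, and 48 h and 74 h, but by -0.03 to 0.04 for the other 3 pairs of times. The fit with the replicate block gave 10911, 6825, 7, 3259 and 2369 calls in the 5 comparisons (late against early, 74 h against 48 h, 6 h against 4 h, G4, E3). Reads limit genes near 0 early, whose fold changes rest on 0 to 3 reads.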

Other observations

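At 24 h of RA, which the comparison leaves out, the gene groups stood at different stages. Pou5f1 had a mean of 108 CPM and Tet1 569.5 CPM in the 2 libraries, and Hoxb1 had 37.6 CPM, against 47.8 CPM at 48 h. Lama1 had 175 CPM and Gata4 13.1 CPM, against 6879 and 130.4 CPM at 74 h. Meis1, a Hox cofactor, had 142 CPM at 24 h against 961 CPM at 48 h, and Cyp26a1 had 275 CPM. H19 had 6.64 CPM at 24 h and 322 CPM at 74 h.

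Changes varied with the length of the gene's span, which is counted with its introns in these data. Among the fifth of genes with the longest spans (69.9 kb or more) 47.8% were higher late and 26.7% lower, with a median log2 fold change of 0.28, whereas the 4 shorter groups had medians from -0.15 to -0.01. The largest rises include genes with long spans, such as Mir99ahg and Robo2, and genes with short ones, such as Cyp1b1. Whether span has a part in any single change was not tested.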
